A study of Mus musculus with 4 samples.

Results

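The genes followed across the immune cells of the mouse spinal cord were the neutrophil-attracting ligands Cxcl1, Cxcl2 and Cxcl3, their receptor Cxcr2, and Cxcr4, the receptor that holds neutrophils in bone marrow. The genes were chosen by name, as the 5 of 31053 rows of the count matrices that carry these symbols. Single cells were measured in 4 libraries, 1 for each condition, from CD45+ cells sorted from the spinal cord of C57BL/6 mice at 3 months of age, males and females pooled. The standard sham library came from uninjured cord taken apart without an inhibitor. The ActD sham library came from uninjured cord taken apart in actinomycin D (ActD), an inhibitor of transcription, at 45 µM during warm digestion and 3 µM in the cold steps. The 3 dpi and 14 dpi libraries came from contused cord at 3 and 14 days post injury and, per the study's methods, were also prepared with ActD. The study's methods give a total number of mice, as many males as females, divided into 3 groups, but not the number behind each library.

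Cxcl1, Cxcl2 and Cxcl3 are small secreted ELR-motif CXC chemokines. They bind Cxcr2, a G protein-coupled receptor that draws neutrophils out of blood and toward damaged tissue. Cxcr4 binds Cxcl12 and works against Cxcr2, since its signal keeps neutrophils in the marrow and returns aged ones to it. The ligand genes are immediate targets of NF-kB in macrophages, neutrophils and stromal cells, and their short-lived messages can appear within minutes of a stimulus. For that reason enzymatic dissociation at warm temperature is a known source of these transcripts.

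The ligand genes lie in 1 chemokine cluster on mouse chromosome 5, within 119836 bp (GRCm38, GENCODE M21). Cxcl3 (ENSMUSG00000029379) lies at chr5:90786103-90789600, Cxcl1 (ENSMUSG00000029380) at chr5:90891241-90893115 and Cxcl2 (ENSMUSG00000058427) at chr5:90903871-90905938, all on the plus strand. Cxcr2 (ENSMUSG00000026180) lies at chr1:74153989-74161246 on the plus strand and Cxcr4 (ENSMUSG00000045382) at chr1:128588199-128592293 on the minus strand. The 110 bases before each start are shown because the ligand promoters share exact strings of letters that the receptor promoters lack. They were read 5′ to 3′ on the gene's strand from RefSeq promoter sequence (GRCm38.p6), and all 5 genes had an entry. Capitals mark GGAATTTCC, a sequence of the kind bound by NF-kB, and ATAAAAGG, a TATA-like sequence.
Cxcl1, chr5:90891131-90891240, plus strand: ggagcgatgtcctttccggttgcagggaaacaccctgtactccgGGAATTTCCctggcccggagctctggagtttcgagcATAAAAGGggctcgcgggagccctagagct
Cxcl2, chr5:90903761-90903870, plus strand: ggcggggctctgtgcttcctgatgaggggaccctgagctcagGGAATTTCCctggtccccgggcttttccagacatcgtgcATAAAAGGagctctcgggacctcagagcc
Cxcl3, chr5:90785991-90786100, plus strand: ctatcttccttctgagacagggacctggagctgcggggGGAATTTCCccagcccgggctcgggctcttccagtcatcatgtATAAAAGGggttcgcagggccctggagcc
Cxcr2, chr1:74153879-74153988, plus strand: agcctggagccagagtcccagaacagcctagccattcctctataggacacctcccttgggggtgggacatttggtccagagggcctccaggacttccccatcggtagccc
Cxcr4, chr1:128592300-128592409, minus strand: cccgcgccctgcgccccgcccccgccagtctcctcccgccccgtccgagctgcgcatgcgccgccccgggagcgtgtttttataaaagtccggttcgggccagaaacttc

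Both motifs were picked after these promoters had been seen, and both strands of the window from 250 bases before to 50 after the RefSeq start were searched. GGAATTTCC was found in 104 of 32851 promoters (0.317%) and ATAAAAGG in 577 (1.76%). Just 4 promoters held both, those of Cxcl1, Cxcl2, Cxcl3 and Gm38531. In Cxcl1 the first motif began 70 bases before the RefSeq start, in Cxcl2 96 bases before and in Cxcl3 72 bases before. The windows of Cxcr2 and Cxcr4 held neither exact string of letters. The Cxcr4 sequence did hold ataaaagt, also TATA-like, which differs from ATAAAAGG in its last letter alone. A match is a description of sequence and was not tied to binding by any data used here. Its part in the levels below was not tested.

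Filtering kept 5035 cells with standard dissociation, 2135 in the ActD sham, 8214 at 3 dpi and 9078 at 14 dpi, with a median of 7426 to 9672 UMIs per cell. Cells were clustered without the 5 members and each cluster was named from marker genes, so that a name such as neutrophil-like means no more than its markers. A gene's level is given as CPM, its UMIs per 1000000 UMIs of all cells of a class in a library. These are 3′ counts, not divided by gene length, and levels are compared between classes and libraries, not between genes. With 1 library per condition there was no replicate and no test. Intervals are 95% and cover counting error only, and they are too narrow where a few cells hold most UMIs. The share of kept cells with at least 1 UMI of Ptprc, which encodes CD45, was 87.5%, 94.7%, 84.1% and 94.8% in the same order. It was 8.89% in 45 endothelial-like cells at 14 dpi and 45% in 40 fibroblast-like cells at 3 dpi, so fewer of these cells showed the sorted marker. Between 3 and 36 cell barcodes were shared by each pair of libraries. The standard sham and 3 dpi matrices name software version 3.0.1, and the ActD sham and 14 dpi matrices name 3.1.0. Protocol and version thus cannot be told apart between the sham libraries. Nor can injury and version between the 3 dpi library and the ActD sham, or time and version between 3 and 14 dpi. Scaling a class by TMM factors, in place of its own total, moved the log2 ratios of standard over ActD sham by 0.49 in microglia-like, 0.36 in macrophage-like and -0.24 in neutrophil-like cells. It moved those of 3 dpi over the ActD sham by 0.36, 0.66 and -0.92 in the same classes, and those of 14 over 3 dpi by 0.17, -0.32 and 0.92.

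The neutrophil-like class held 448 cells with standard dissociation, 102 in the ActD sham, 1832 at 3 dpi and 1255 at 14 dpi, and its make-up differed between them. Most cells lay in cluster 9 in the standard sham (259), the ActD sham (74) and the 14 dpi library (655), but in cluster 5 at 3 dpi (1226). The 12 neutrophil markers summed to 335099, 413886, 55273 and 424111 CPM in that order of libraries, and all 12 were detected in each. The 9 markers of injury macrophages summed to 1859, 1358, 4777 and 942 CPM in the same cells, and the median depth was 7578, 13540, 2286 and 6645 UMIs. The cells at 3 dpi were thus the shallowest, held the lowest neutrophil marker sum and held the highest macrophage marker sum. The part of these differences in the values below was not tested. Macrophage-like cells also differed in make-up. All 109 and 97 of them in the sham libraries were of the border type, against 521 of 3236 at 3 dpi and 145 of 428 at 14 dpi.

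Cxcl2 was the most counted ligand in every library. It gave 25962 UMIs in the standard sham, 782 in the ActD sham, 179553 at 3 dpi and 16359 at 14 dpi, which were 97.9%, 99.1%, 91.5% and 97.9% of all UMIs of the 3 ligands. Cxcl1 gave 482, 0, 7422 and 99 UMIs and Cxcl3 gave 80, 7, 9206 and 245. Over all cells of a library, Cxcl2 stood at 543, 30.4, 1878 and 171 CPM. All ligands were highest at 3 dpi and lowest in the ActD sham, and the standard sham lay above the 14 dpi library for Cxcl1 and Cxcl2 but below it for Cxcl3. The receptors followed other orders. Cxcr2 stood at 22.5, 68.0, 33.7 and 67.4 CPM and Cxcr4 at 60.2, 28.6, 55.7 and 48.2 CPM. These whole-library levels move with the mix of cells, so the classes are taken in turn below.

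**Figure D1:**
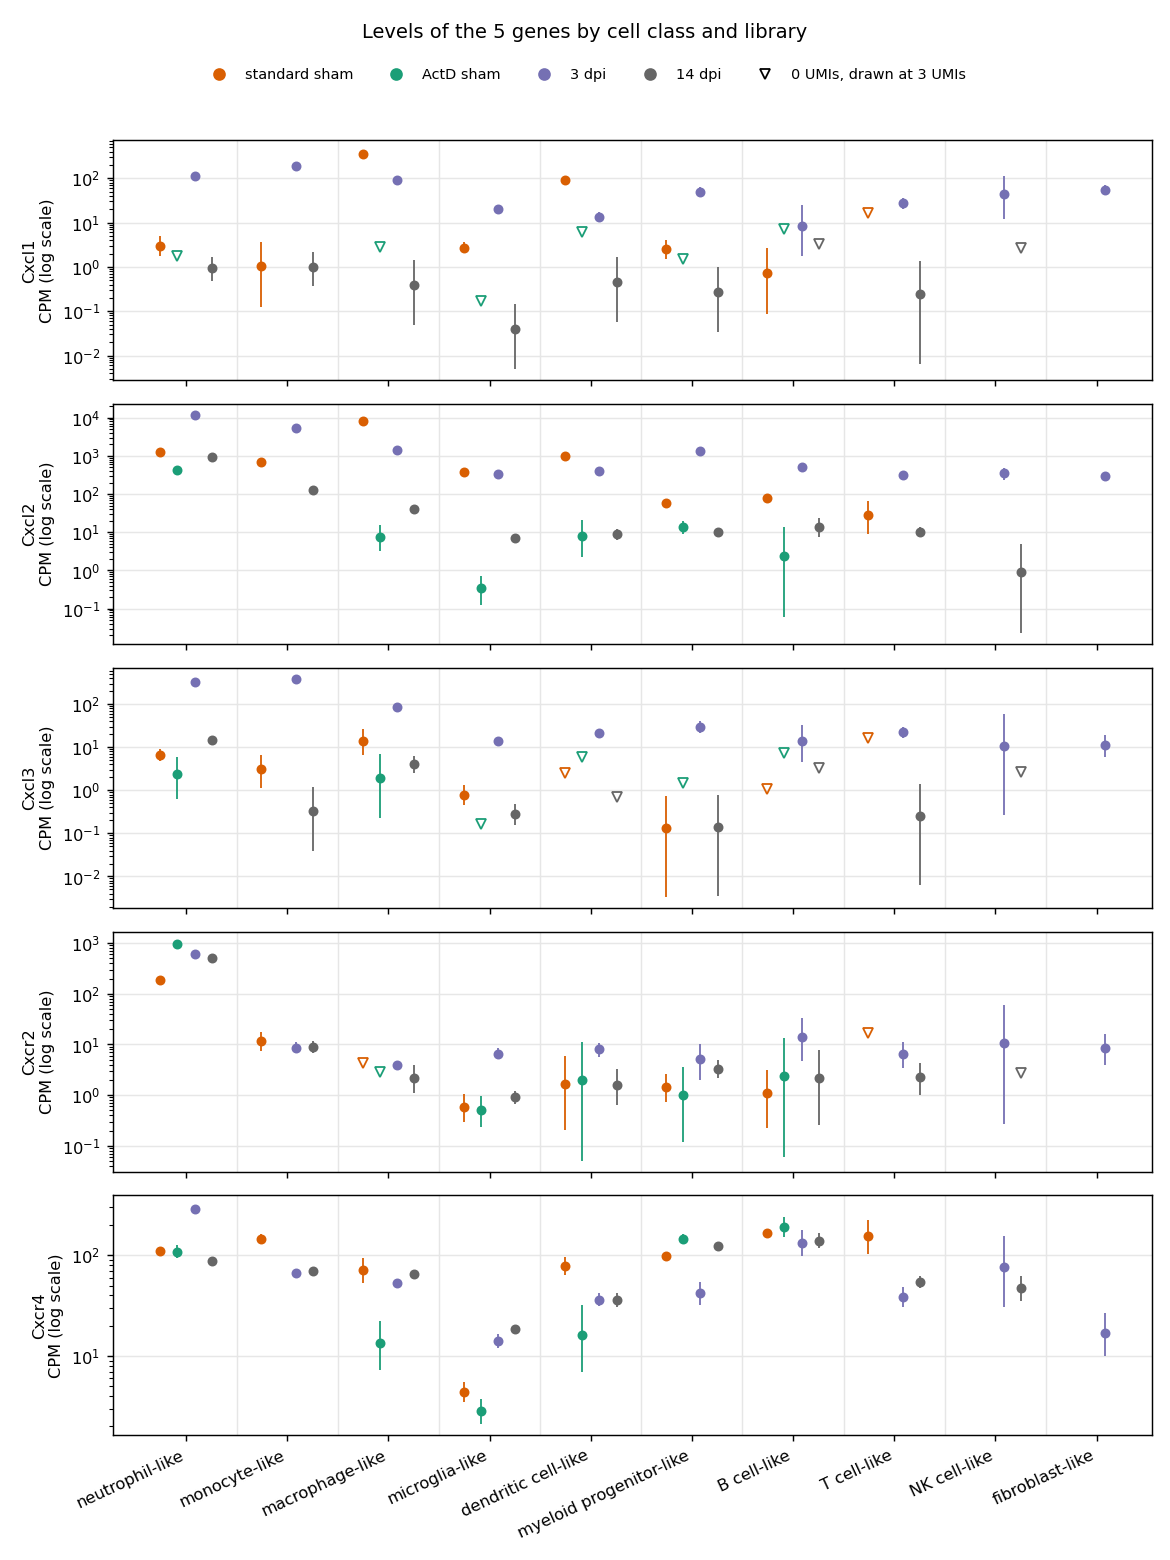
Level of each member (CPM, log axis) in each class of cells in the 4 libraries, with 95% counting intervals as bars; open triangles stand for 0 UMIs and are drawn at 3 UMIs. Cxcl2 spans from 0.339 CPM in microglia-like cells of the ActD sham to 11558 CPM in neutrophil-like cells at 3 dpi, while Cxcr2 is high in neutrophil-like cells of every library.

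The question put to the sham libraries was how much of the ligand message arises during dissociation. In macrophage-like cells, all of them border macrophage-like (cluster 11), Cxcl2 stood at 8201 CPM (7991 to 8414) with standard dissociation and at 7.66 CPM (3.31 to 15.1) with ActD. That was the highest Cxcl2 level of any class in the standard sham. The log2 ratio was 10.06 (9.08 to 11.28). Cxcl1 gave 254 UMIs, or 358 CPM, against 0 UMIs, a level at least 124-fold higher against a floor of 3 UMIs. Cxcr4 stood at 71.8 against 13.4 CPM, a log2 ratio of 2.42 (1.55 to 3.39). Cxcl3 gave 10 against 2 UMIs, a ratio of 7.35-fold with a log2 interval of 0.65 to 6.11. Of the 5 members, 3 had at least 20 UMIs in the pair and all 3 were past 4-fold higher, against 2.74% of the 7346 genes with as many UMIs. All 3 had at least 20 UMIs through the standard library alone, with Cxcl2 at 5821 against 8 and Cxcr4 at 51 against 14 UMIs, so the filter favoured a difference. Here and in each comparison that follows, such counts are descriptions and support nothing.

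Microglia-like cells, the resident phagocytes and the most numerous class in both sham libraries, gave a like contrast from a lower level. Cxcl2 stood at 371 CPM (363 to 380) in 2388 cells with standard dissociation and at 0.339 CPM (0.124 to 0.738), 6 UMIs in all, in 1611 cells with ActD. The log2 ratio was 10.10 (8.97 to 11.54), and within female cells it was 11.55 and within male cells 9.66. Cxcl1 was at least 16.1-fold higher, from 51 UMIs in 13 cells against 0. Cxcr4 stood at 4.43 and 2.82 CPM, and Cxcr2 was near 0 in both. Here 4 members had at least 20 UMIs and 2 of them (Cxcl1 and Cxcl2) were past 4-fold higher, against 3.31% of all genes counted, both admitted through the standard library alone. In the standard sham the microglia-like level of Cxcl2 stood above that of B cell-like cells, 78.1 CPM, and T cell-like cells, 27.9 CPM.

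Neutrophil-like cells differed less between the sham libraries. Cxcl2 stood at 1240 CPM (1210 to 1270) with standard dissociation and 431 CPM (401 to 464) with ActD, a log2 ratio of 1.52 (1.41 to 1.64). Over all alternative processing choices this ratio ran from 0.41 to 2.49. Cxcl3 gave 36 against 4 UMIs and Cxcl1 gave 16 against 0. Cxcr2 stood at 186 CPM against 980 CPM, a log2 ratio of -2.40 (-2.51 to -2.28), and Cxcr4 stood at 111 and 109 CPM. Of 4 members with at least 20 UMIs none was past 4-fold higher, where 12.2% of all genes were, and Cxcr2 was past 4-fold lower, where 1.58% of all genes were. In the standard sham 63 of the 448 cells, with 39.7% of the class's UMIs, lay in a cluster rich in azurophil granule genes (cluster 18), and the ActD sham had none. Without that cluster Cxcl2 stood at 1951 CPM in the standard sham, with a log2 ratio of 2.18 (2.07 to 2.29), and Cxcr2 at 295 CPM, with a log2 ratio of -1.73 (-1.85 to -1.62). Cxcr2 was then no longer past 4-fold lower, and Cxcl2 was past 4-fold higher. Cxcr4 stood at 153 CPM (139 to 167) in the standard sham without it, a log2 ratio of 0.48 (0.24 to 0.74).

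Dendritic cell-like cells held 1161 Cxcl2 UMIs in 102 cells with standard dissociation and 4 in 39 cells with ActD. At 3 dpi the main cluster of this class was named by its marker levels but had no dendritic cell marker among its 10 leading genes, and its values there are not described. Their 107 Cxcl1 UMIs of the standard sham came from just 5 cells. In B cell-like cells Cxcl2 gave 217 UMIs against 1, a log2 ratio of 5.02 (2.53 to 10.33), so that a class which should lack the ligand also held more of it in the standard library. In the ActD sham the neutrophil-like class was the main source of Cxcl2, with 93.1% (91.1 to 94.8) of 782 UMIs from 4.78% of the cells. In the standard sham the same class held 25.4%, microglia-like cells 26.8% and macrophage-like cells 22.4%, the last from 2.16% of the cells.

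**Figure D2:**
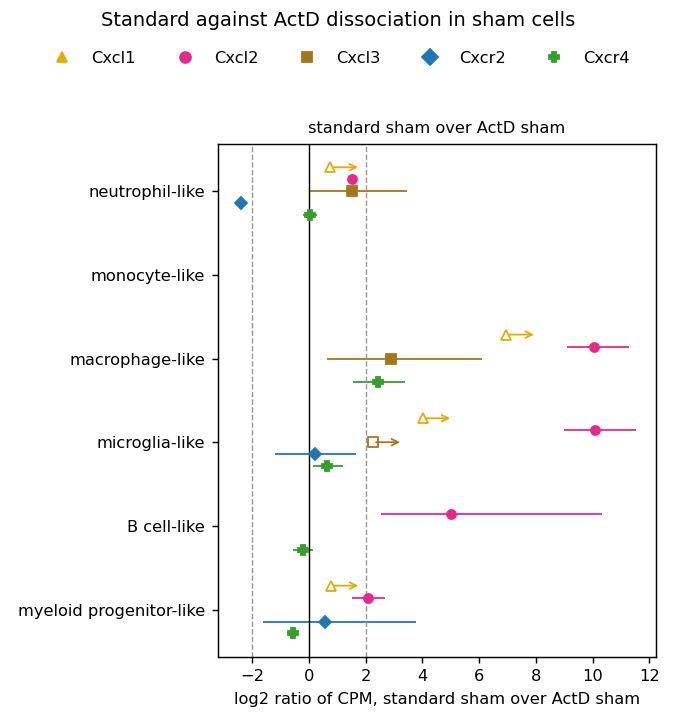
Log2 ratio of the level in the standard sham over the ActD sham for each member and class, with 95% counting intervals; open symbols with arrows are bounds against 3 UMIs and dashed lines mark 4-fold. Cxcl2 sits near 10 in macrophage-like and microglia-like cells and at 1.52 in neutrophil-like cells, and Cxcr2 in neutrophil-like cells sits at -2.40; the ActD sham had no monocyte-like cluster.

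After injury the libraries share the ActD protocol, per the study's methods, and the ActD sham is the control for both. The 14 dpi matrix names the same software version as this control, but the 3 dpi matrix does not. Cxcl2 in neutrophil-like cells stood at 1240 CPM in the standard sham, 431 CPM in the ActD sham, 11558 CPM (11458 to 11659) at 3 dpi and 934 CPM (917 to 952) at 14 dpi. The 3 dpi level was far above the other three. Over the ActD sham the log2 ratio was 4.74 (4.64 to 4.85) at 3 dpi and 1.11 (1.01 to 1.23) at 14 dpi. Without the azurophil-rich cluster 18 Cxcl2 stood at 1472 CPM there and the log2 ratio was 1.77 (1.66 to 1.88). Over all alternative processing choices the 14 dpi ratio ran from 0.07 to 2.32, so its size was not settled. With TMM factors the ratio of Cxcl2 at 3 dpi was 3.82. Fewer than 20 neutrophil-like cells of the ActD sham could be sexed as male, so no ratio to it is given in male cells. At 14 dpi most sexed neutrophil-like cells were male, and the part of sex in these ratios was not tested. Cxcl3 stood at 6.76, 2.37, 333 and 15.1 CPM, with a log2 ratio of 7.13 (5.77 to 9.01) at 3 dpi and 2.67 (1.29 to 4.56) at 14 dpi, both against 4 UMIs. Cxcl1 stood at 3.01, 0, 115 and 0.946 CPM and was at least 64.4-fold higher at 3 dpi than in the ActD sham. All 5 members had at least 20 UMIs in the 3 dpi pair and the 3 ligands were past 4-fold higher, against 26.8% of all genes. With so many genes past that line the count is weak evidence about the members. From 3 to 14 dpi the log2 ratios were -3.63 for Cxcl2 (-5.00 to -2.10 over all alternatives), -4.47 for Cxcl3 and -6.92 for Cxcl1. These 3 of 5 members were past 4-fold lower, against 17.1% of all genes.

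Macrophage-like cells held the ligands at 3 dpi at lower levels than neutrophil-like cells, in a larger number of cells. Cxcl2 stood at 1454 CPM (1444 to 1464) at 3 dpi and 39.5 CPM (34.2 to 45.4) at 14 dpi, against 7.66 CPM in the ActD sham. The log2 ratio was 7.57 (6.59 to 8.78) at 3 dpi, and the standard sham level of 8201 CPM lay above both injured libraries. Cxcl1 stood at 91.9 CPM at 3 dpi, at least 32.0-fold above the ActD sham, and gave 2 UMIs at 14 dpi. Cxcl3 stood at 84.6 CPM at 3 dpi, a log2 ratio of 5.46 (3.61 to 8.51) against 2 UMIs, and its 21 UMIs at 14 dpi all came from 1 cell. Cxcr4 stood at 71.8, 13.4, 53.7 and 64.9 CPM in the standard sham, the ActD sham, 3 dpi and 14 dpi, so that it was low in the ActD sham alone. At 3 dpi all 5 members had at least 20 UMIs and 4 were past 4-fold higher, against 4.95% of all genes. Cxcr4 was at the edge of that count, with a ratio of 4.0-fold (2.38 to 7.33). Cxcr2, with 210 UMIs at 3 dpi against 0, was at least 1.37-fold higher. From 3 to 14 dpi the 3 ligands were past 4-fold lower, against 4.16% of all genes.

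The sham macrophage-like cells were all of the border type, and the border type alone can be followed across the 4 libraries. Its Cxcl2 level was 8201 CPM in the standard sham, 7.66 CPM in the ActD sham, 2686 CPM at 3 dpi and 32.7 CPM at 14 dpi. Cxcl1 followed at 358, 0, 133 and 0.860 CPM. The injury macrophage-like cells were present at 3 dpi (2715 cells) and 14 dpi (283 cells), with Cxcl2 at 1339 and 41.5 CPM and Cxcl1 at 88.1 and 0.255 CPM. At 3 dpi all 3 ligands were thus higher per UMI in the border type than in the injury type. Cxcr4 ran the other way at 14 dpi, at 32.7 CPM (23.1 to 44.9) in the border type and 74.4 CPM (66.1 to 83.4) in the injury type.

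Monocyte-like cells, blood-derived precursors of macrophages, were not named in the ActD sham, so their values have no control prepared alike here. Under 9 other clustering, naming and filter settings between 21 and 130 such cells were named in that library. Cxcl2 stood at 707 CPM in the standard sham, 5215 CPM (5163 to 5269) at 3 dpi and 124 CPM (115 to 133) at 14 dpi. Cxcl1 stood at 1.03, 184 and 0.983 CPM and Cxcl3 at 3.1, 375 and 0.328 CPM. Among the classes at 3 dpi these were the highest levels of Cxcl1 and Cxcl3 and the second highest of Cxcl2. From 3 to 14 dpi the log2 ratios were -5.40 (-5.50 to -5.29) for Cxcl2, -7.55 (-9.00 to -6.42) for Cxcl1 and -10.16 (-13.21 to -8.30) for Cxcl3, the last from 2677 against 2 UMIs. Cxcr2 and Cxcr4 did not differ beyond counting error, with log2 ratios of 0.05 and 0.04, and over all alternatives these ran from -0.91 to 0.40 and from -0.41 to 0.69. The 3 ligands of 5 members were past 4-fold lower, against 3.91% of all genes.

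In microglia-like cells the ligands at 3 dpi have to be read beside the lymphocytes. Cxcl2 stood at 327 CPM (317 to 339) at 3 dpi and 7.0 CPM at 14 dpi, against 0.339 CPM in the ActD sham, log2 ratios of 9.92 (8.79 to 11.36) and 4.37. At 3 dpi, however, Cxcl2 also stood at 498 CPM (427 to 578) in B cell-like, 316 CPM in T cell-like and 346 CPM in NK cell-like cells, classes that should lack it. The microglia-like level was below that of B cell-like cells and did not differ from those of T and NK cell-like cells beyond counting error. The part of free RNA in these values was not tested. All 5 members were past 4-fold higher in microglia-like cells at 3 dpi than in the ActD sham, against 5.65% of all genes. Cxcl1, Cxcl2, Cxcl3 and Cxcr2 had at least 20 UMIs through the 3 dpi library alone, so the filter favoured a difference here too. In the same cells 4 members were past 4-fold lower at 14 dpi than at 3 dpi, against 6.61% of all genes. At 14 dpi 2 members, Cxcl2 and Cxcr4, were past 4-fold higher than in the ActD sham, against 2.8% of all genes. Of these, Cxcl2 at 7.0 CPM (6.29 to 7.78) lay beside 14.0 CPM (7.47 to 24) in B cell-like, 10.4 CPM (7.53 to 14.1) in T cell-like, 1.45 CPM (0.394 to 3.70) in pro-B or pre-B cell-like and 0.907 CPM (0.0230 to 5.05) in NK cell-like cells. It was thus above some lymphocyte classes and not above others. Cxcr4 stood at 4.43, 2.82, 14.2 and 18.7 CPM in the standard sham, the ActD sham, 3 dpi and 14 dpi, with a log2 ratio of 2.73 (2.32 to 3.17) at 14 dpi.

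**Figure D3:**
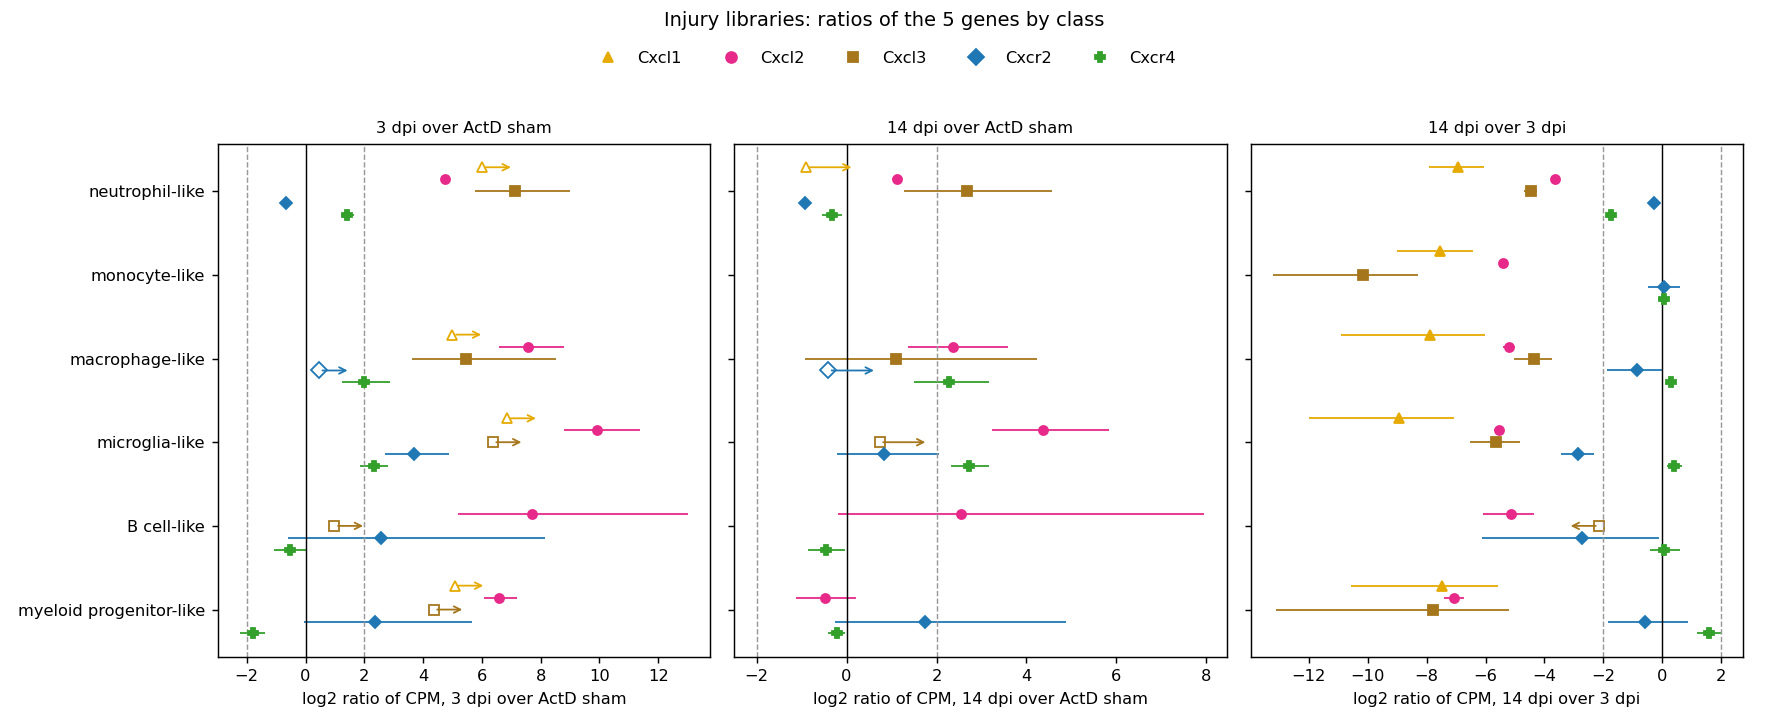
Log2 ratio of the level at 3 dpi and at 14 dpi over the ActD sham, and at 14 dpi over 3 dpi, for each member and class. Bars are 95% counting intervals, open symbols with arrows are bounds against 3 UMIs and dashed lines mark 4-fold. Over the ActD sham, Cxcl2 in neutrophil-like cells sits at 4.74 at 3 dpi and 1.11 at 14 dpi, and Cxcr2 lies below 0 at both times. The monocyte-like row is empty over the ActD sham, which had no such cluster, but not for 14 dpi over 3 dpi.

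The share of cells with a UMI was compared between the same classes. Cells were thinned to 1000 UMIs each, which left out 6 shallower cells with standard dissociation, 9 in the ActD sham, 9 at 3 dpi and 11 at 14 dpi. At 3 dpi a Cxcl2 UMI was seen in 92.7% (91.4 to 93.8) of neutrophil-like, 72.4% of monocyte-like and 51.1% of macrophage-like cells. It was seen in 32.1% (24.2 to 40.8) of B cell-like, 28.3% of T cell-like and 22.3% (19.0 to 25.9) of microglia-like cells. Unthinned, the shares were 96.1%, 93.9%, 94.7%, 61.8%, 68.9% and 80.8% in the same order, with median depths of 2286 UMIs in neutrophil-like and 2504 in B cell-like cells. In neutrophil-like cells of the standard sham, the ActD sham and 14 dpi the thinned share was 49.8%, 27.5% and 38.6% (unthinned 75.2%, 52.0% and 59.0%), beside 2.20%, 0% and 0.355% in B cell-like cells (unthinned 10.3%, 1.59% and 2.12%), whose median depths were 3822, 5780 and 2986 UMIs. Neutrophil-like cells were above the lymphocytes in all 4 libraries. Macrophage-like cells went from 72.5% in the standard sham to 0 of 97 cells in the ActD sham, with an exact upper bound of 3.73%, and then 51.1% and 1.64% after injury (unthinned 78.9%, 7.22%, 94.7% and 8.18%).

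Per UMI of S100a9, a calgranulin of which neutrophils hold very much, Cxcl2 differed between classes. At 3 dpi the ratio of Cxcl2 to S100a9 UMIs was 0.456 in neutrophil-like, 11.4 in macrophage-like and 11.8 in monocyte-like cells, and 1.56 in B cell-like, 1.54 in T cell-like and 1.28 in NK cell-like cells. It was 1.19 in myeloid progenitor-like and 2.11 in microglia-like cells.

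By source, macrophage-like cells held 43.2% (43.0 to 43.4) of the 179553 Cxcl2 UMIs at 3 dpi, neutrophil-like cells 28.5% (28.3 to 28.7) and monocyte-like cells 20.7% (20.6 to 20.9). The neutrophil-like share came from 22.3% of the cells and just 4.63% of all UMIs. The macrophage-like share came from 39.4% of the cells and 55.8% of all UMIs, and the monocyte-like share from 9.93% and 7.47%. When each cell counted alike, by the mean over cells of its own CPM, the neutrophil-like share was 66.6% instead. Macrophage-like cells also held the largest shares of Cxcl1 (66.1%) and Cxcl3 (49.0%) at 3 dpi, followed by monocyte-like cells with 17.7% and 29.1% and neutrophil-like cells with 6.83% and 16.0%. Cxcl1 was thus the ligand with the lowest and Cxcl2 the ligand with the highest neutrophil-like share. In macrophage-like cells the shares of Cxcl2 and Cxcl3 lay below, and that of Cxcl1 above, their 55.8% of all UMIs. By 14 dpi neutrophil-like cells held 66.4% (65.6 to 67.1) of Cxcl2 and 71.4% (65.3 to 77.0) of Cxcl3 UMIs, and cells without a name held 24.3% of Cxcl2. The few Cxcl1 UMIs left at 14 dpi had another source, as 72 of 99 lay in endothelial-like cells (72.7%, 62.9 to 81.2), though in just 6 of those 45 cells. Macrophage-like cells held 52.7% of Cxcl1 UMIs with standard dissociation.

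**Figure D4:**
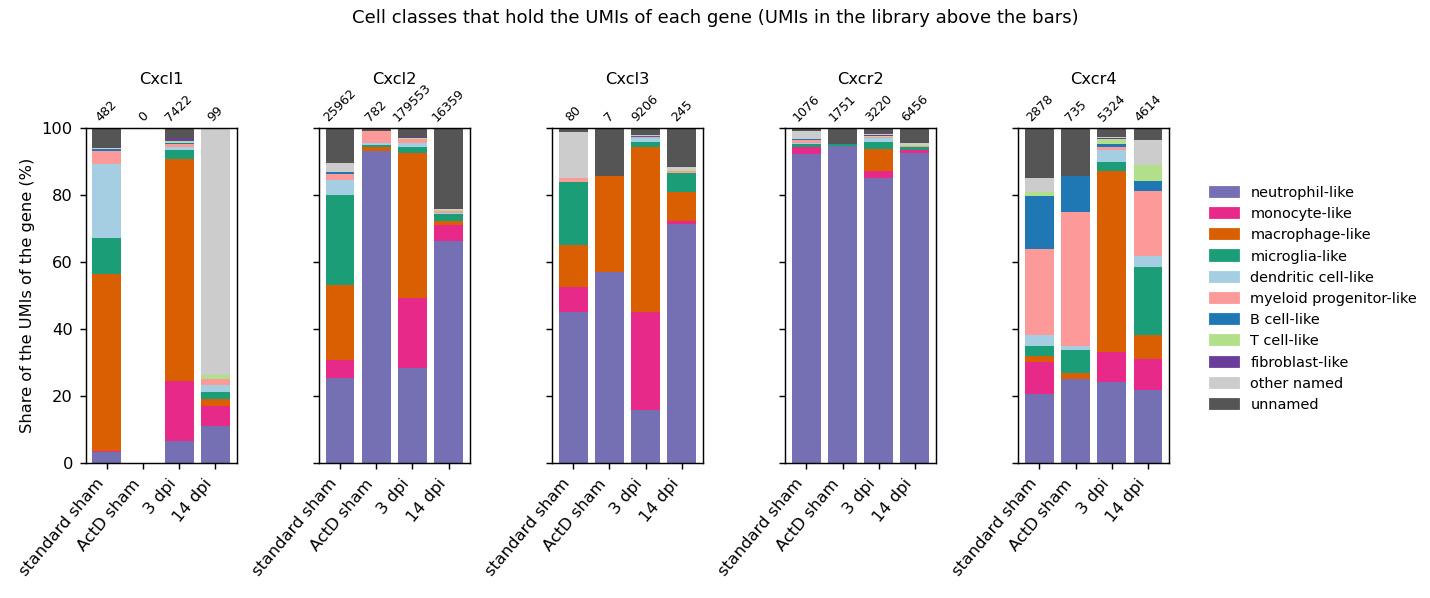
Share of each member's UMIs (percent of the library's UMIs of that gene) held by each class in the 4 libraries. Neutrophil-like cells hold 93.1% of Cxcl2 in the ActD sham, 28.5% at 3 dpi and 66.4% at 14 dpi, and 85.0% or more of Cxcr2 in every library; Cxcl1 has no bar in the ActD sham, where it had 0 UMIs.

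On the receiving side, Cxcr2 was a gene of neutrophil-like cells in all libraries. They held 92.0%, 94.5%, 85.0% and 92.3% of its UMIs in the standard sham, the ActD sham, 3 dpi and 14 dpi. Their level was 186 CPM (175 to 198), 980 CPM (933 to 1029), 619 CPM (596 to 642) and 513 CPM (500 to 526). The ActD sham was highest and the standard sham lowest, and no 2 intervals overlapped. Over the ActD sham the log2 ratio was -0.66 (-0.75 to -0.58) at 3 dpi and -0.93 (-1.01 to -0.85) at 14 dpi, neither past 4-fold. With TMM factors the ratio at 3 dpi was -1.59. The direction between 14 and 3 dpi was not settled. It turned with the azurophil-rich cluster 18, which held 182 of the 1255 cells at 14 dpi and 37.0% of their UMIs. With it Cxcr2 at 14 dpi relative to 3 dpi gave a log2 ratio of -0.27 (-0.34 to -0.20), and without it 0.35 (0.29 to 0.42), from 791 CPM at 14 dpi. It was also above 0 with TMM factors (0.65) and in female cells (0.28), and over all alternatives it ran from -0.85 to 0.75.

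Other classes held little Cxcr2. Its level at 3 dpi was 14.2 CPM in B cell-like, 8.68 CPM in monocyte-like, 6.61 CPM in microglia-like and 3.93 CPM in macrophage-like cells, beside 6.52 CPM (3.47 to 11.2) in T cell-like cells. The B cell-like value rests on 5 UMIs and the T cell-like value on 13, and none of these myeloid classes differed from both beyond counting error. In the standard sham monocyte-like cells, at 11.9 CPM (7.53 to 17.8), were above B cell-like cells, at 1.08 CPM (0.223 to 3.16). They did not differ beyond counting error from T cell-like cells, with 0 UMIs in 27 cells and an upper limit of 20.6 CPM. The monocyte-like value rests on 23 UMIs in 10 of 204 cells. The thinned share of neutrophil-like cells with a Cxcr2 UMI was 27.0%, 67.6%, 40.6% and 50.1% in the standard sham, the ActD sham, 3 dpi and 14 dpi (unthinned 76.8%, 98.0%, 61.1% and 86.3%). In B cell-like cells it was at most 2.29% (unthinned at most 3.82%). The thinned shares had the order of the levels apart from 3 and 14 dpi, which changed places.

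Cxcr4 was spread over many classes. In neutrophil-like cells it stood at 111 CPM (103 to 121) in the standard sham, 109 CPM (93.9 to 126) in the ActD sham, 291 CPM (275 to 307) at 3 dpi and 86.9 CPM (81.6 to 92.4) at 14 dpi. The 3 dpi library was highest and the 14 dpi library lowest. The intervals of the sham libraries overlapped, but without cluster 18 they did not, at 153 CPM (139 to 167) and 109 CPM. Over the ActD sham the log2 ratio was 1.42 (1.19 to 1.65) at 3 dpi and -0.33 (-0.56 to -0.09) at 14 dpi. The first became 0.49 with TMM factors. The second was -0.17 (-0.41 to 0.07) without cluster 18 and 0.66 in female cells, so its direction was not stable. B cell-like cells stood at 166, 192, 134 and 140 CPM. In myeloid progenitor-like cells Cxcr4 stood at 97.4, 145, 41.9 and 125 CPM, and in monocyte-like cells at 145 CPM in the standard sham and 67.2 and 69.3 CPM at 3 and 14 dpi. By UMIs, macrophage-like cells held 53.8% of Cxcr4 at 3 dpi, near their 55.8% of all UMIs. Progenitor-like cells held 40.0% in the ActD sham, from 1.31% of the cells and 7.86% of all UMIs. The thinned share of neutrophil-like cells with a Cxcr4 UMI was 15.4%, 7.84%, 24.3% and 11.6% (unthinned 65.2%, 65.7%, 42.2% and 46.9%).

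The balance of the receptors, which oppose each other in marrow release, can be read within the neutrophil-like cells. There were 1.67 Cxcr2 UMIs per Cxcr4 UMI in the standard sham, 8.99 in the ActD sham, 2.13 at 3 dpi and 5.90 at 14 dpi. Among thinned cells 61.8% of the ActD sham had a UMI of Cxcr2 alone and 1.96% of Cxcr4 alone. At 3 dpi these were 30.8% and 14.5%, at 14 dpi 42.2% and 3.75%, and in the standard sham 21.4% and 9.82%. The ActD sham and 14 dpi cells thus leaned most to Cxcr2, and 3 dpi and standard sham cells least.

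Within the neutrophil-like class the members were read beside the granule genes, which neutrophils make in a fixed order as they mature. Clustered alone, the class gave sub-clusters n0 to n8. At 3 dpi nearly all cells fell in n0 (974 cells) and n1 (839 cells), which had Cxcl2 at 11009 and 13128 CPM, Cxcr4 at 297 and 296 CPM, and Cxcr2 at 576 and 698 CPM. They lay furthest apart in Cxcl3, at 286 and 429 CPM, and held Camp, a specific granule gene, at just 68.3 and 38.6 CPM. At 14 dpi the sub-clusters were far apart. In n6 (182 cells, Elane at 1419 CPM) Cxcl2 stood at 18.9 CPM and Cxcr2 at 39.7 CPM, and in n2 (347 cells, Camp at 40652 CPM) they stood at 184 and 308 CPM. In n4 (274 cells, Mmp8 at 3820 CPM) they stood at 907 and 1098 CPM, in n5 (258 cells, Camp at 106 CPM) at 2749 and 1677 CPM, and in n7 (177 cells, Camp at 3854 CPM) at 10302 and 1884 CPM. At 14 dpi the sub-clusters with the most Camp, n6 (51825 CPM) and n2, held the least Cxcl2 and Cxcr2, but among the others Cxcl2 did not follow Camp, which was close in n4 (4013 CPM) and n7 and lowest in n5. Sub-cluster n7 came near the 3 dpi level of Cxcl2. The 63 cells of n7 in the ActD sham held Cxcl2 at 539 CPM and Cxcr2 at 1209 CPM. With standard dissociation n6 (65 cells, Elane at 8259 CPM) held Cxcl2 at 154 CPM, and n3 (306 cells) at 2541 CPM.

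**Figure D5:**
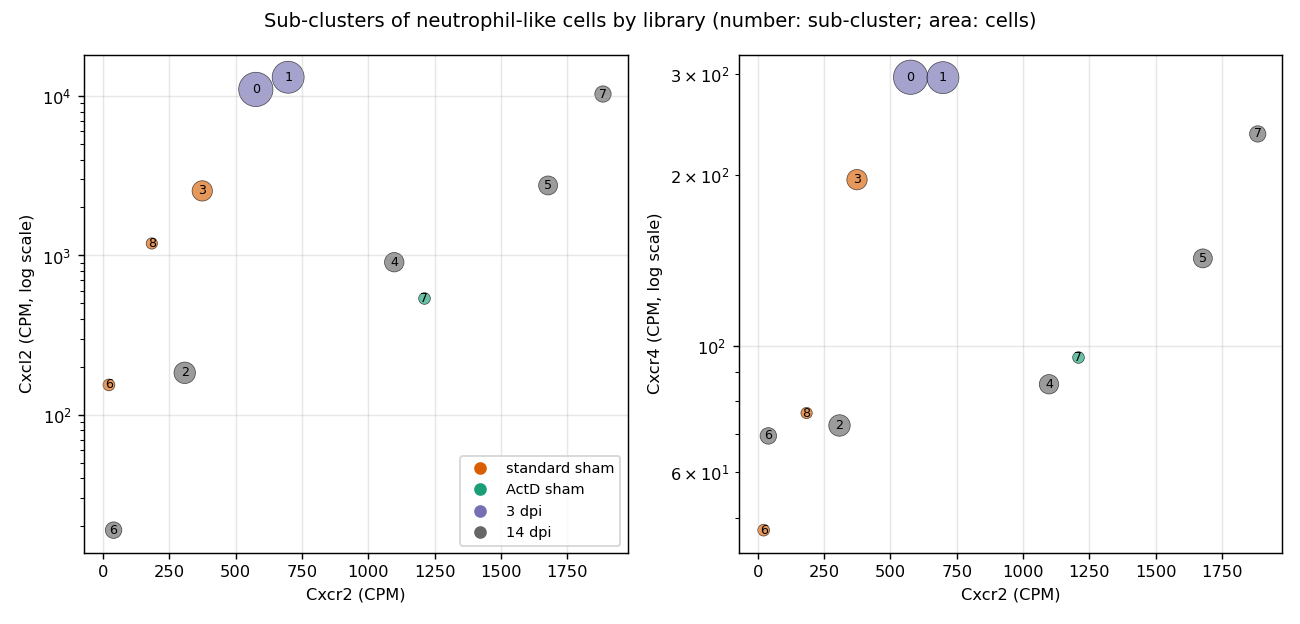
Cxcl2 level (left) and Cxcr4 level (right), in CPM on a log axis, against Cxcr2 level in CPM on a linear axis. Each point is 1 sub-cluster of neutrophil-like cells in 1 library. Its area stands for the number of cells and its number names the sub-cluster. On the left, the 14 dpi points run from sub-cluster 6 (Cxcl2 18.9 and Cxcr2 39.7 CPM) to sub-cluster 7 (10302 and 1884 CPM). The 3 dpi points lie together there at high Cxcl2.

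Cxcl2 and Cxcr2 were also compared cell by cell. Among thinned neutrophil-like cells at 14 dpi, Cxcr2 was seen in 74.6% of 484 cells with Cxcl2 and in 34.8% of the rest. At 3 dpi it was seen in 40.9% of 1691 cells with Cxcl2 and 37.3% of the rest, in the ActD sham in 85.7% and 60.8%, and in the standard sham in 34.1% and 20%. The gap was widest at 14 dpi. The ligands also lay together in monocyte-like cells at 3 dpi, where Cxcl3 was seen in 54.4% of 79 cells with Cxcl1 and 14.0% of the rest. Cxcl2 was most even at 3 dpi, where 399 of 1825 neutrophil-like cells (21.9%) held 50% of its thinned UMIs, with a median of 9 and a highest value of 275 UMIs per 1000. At 14 dpi 60 of 1255 cells (4.78%) held as much and the median was 0. Among sham cells 34 of 448 (7.59%) did with standard dissociation and 8 of 102 (7.84%) with ActD.

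The mice of a library can be told apart by sex, through Xist and Y-linked genes, in cells with a UMI of one or the other. Cxcl2 in neutrophil-like cells at 3 dpi stood at 10548 CPM in 326 female and 11650 CPM in 325 male cells. At 14 dpi it stood at 2399 CPM in 47 female and 365 CPM in 501 male cells, and Cxcr2 at 719 and 352 CPM. Cells of the standard sham had Cxcl2 at 637 CPM in 202 female and 1476 CPM in 50 male cells. The sexes were close at 3 dpi and lay apart in opposite directions in the standard sham and at 14 dpi. The number of mice behind each sex is not known, and sub-cluster n6 of the standard sham was almost wholly female (59 of its 61 sexed cells). At 14 dpi n7, with Cxcl2 at 10302 CPM, held 24 female and 8 male cells. In that library n2 and n6, lowest in Cxcl2, held 4 and 5 female and 168 and 118 male cells. In the ActD sham the sexed cells of n7 were 29 female and 0 male. The part of this mix in the values by sex was not tested. In macrophage-like cells Cxcl2 at 3 dpi stood at 1631 CPM in female and 1290 CPM in male cells.

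Genes around the family were read in neutrophil-like cells from lists by role. Among 11 inducers of the ligands and of neutrophil release, 8 had at least 20 UMIs in the pair of 3 dpi and ActD sham, and 3 were past 4-fold higher at 3 dpi, where 26.8% of all genes were. These were Il1b, the interleukin that drives Cxcl gene expression (10111 against 118 CPM), Tnf (754 against 14.8 CPM) and Il1a (94.2 against 2.37 CPM). Csf3r, the G-CSF receptor, stood at 1070 against 361 CPM. The median log2 ratio of the list was 1.17, beside 1.08 over all 9319 genes counted. Of 9 NF-kB feedback and mRNA decay genes 6 were past 4-fold higher, beside the same 26.8%, with a median of 2.66. They included Tnfaip3, a brake on NF-kB (512 against 4.15 CPM), Nfkbia, its inhibitor (4409 against 280 CPM), and Zfp36, which degrades AU-rich messages such as those of the ligands (1697 against 344 CPM). Of 20 immediate early genes 19 were past 4-fold higher at 3 dpi, again beside 26.8%, with a median of 3.38.

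The receptor lists were read against the same 26.8% of all genes past 4-fold higher at 3 dpi. Of 9 signalling and desensitisation genes with enough UMIs, 2 were past 4-fold higher at 3 dpi, Rgs1 (264 against 3.56 CPM) and Rgs2 (736 against 174 CPM). Past 4-fold lower, where 2.95% of all genes were, was 1, Rgs18 (11.3 against 115 CPM). All 3 belong to the regulators of G protein signalling, which shorten receptor signals. The median of that list was -0.23, and Grk2, the kinase that desensitises Cxcr2, stood at 208 and 244 CPM. Of 7 release and ageing genes Icam1, an adhesion molecule, was past 4-fold higher (304 against 7.11 CPM), and at 14 dpi it stood at 4.56 CPM. All 4 specific granule genes (Camp, Ltf, Ngp and Lcn2) were past 4-fold lower at 3 dpi than in the ActD sham, beside the same 2.95% of all genes, with a median of -5.35. In the standard sham all 4 azurophil genes were past 4-fold higher than in the ActD sham, beside 12.2% of all genes, with a median of 8.01. Cluster 18 held cells of the standard sham but none of the ActD sham.

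The same lists were read between the sham libraries. In microglia-like cells all 20 immediate early genes were past 4-fold higher in the standard sham than in the ActD sham, with a median log2 ratio of 5.94, and 6 of 9 NF-kB genes were, with a median of 3.23. Over all genes 3.31% were and the median was -0.57. In macrophage-like cells the counts were again 20 of 20 and 6 of 9, with medians of 4.62 and 3.15, beside 2.74% and -0.36 over all genes. In neutrophil-like cells they were 9 of 20 and 3 of 9, with medians of 1.61 and 1.4, beside 12.2% and 0.32 over all genes. Il1b stood at 442 against 4.24 CPM in microglia-like and 948 against 2.87 CPM in macrophage-like cells.

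Most other ligands and receptors of the system were scarce in neutrophil-like cells. Cxcl5, Cxcl15, Ackr1, Ackr3 and Cxcl12 did not reach 20 UMIs in any neutrophil-like pair of libraries, and Cxcr1, the sister receptor of Cxcr2, stood at 8.59 CPM at 3 dpi and 4.74 CPM in the ActD sham. Ppbp, a platelet chemokine gene of the ligand cluster that also binds Cxcr2, stood at 52.4 CPM in macrophage-like and 90 CPM in monocyte-like cells at 3 dpi. Pf4, its neighbour, stood at 2832, 3210, 5472 and 459 CPM in macrophage-like cells of the standard sham, the ActD sham, 3 dpi and 14 dpi. Unlike Cxcl2, Pf4 did not differ by more than 4-fold between the sham libraries there. In neutrophil-like cells Pf4 stood at 662 CPM at 3 dpi and 5.93 CPM in the ActD sham.

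The genes most like each member were ranked by the Pearson correlation of log2(CPM + 1) over 31 sums of a class in a library with at least 50 cells, among 11962 genes. These sums share libraries and depth, and the values are descriptions. For Cxcl2 they were Ptgs2 (0.93), Phlda1 (0.91), Il1b (0.90), Dusp1 (0.88) and Ier3 (0.86). For Cxcl1 they were the monocyte-attracting chemokine genes Ccl7 (0.84) and Ccl2 (0.79), then 4930430E12Rik, Gm26532 and Areg. Cxcl3 was most like Pdpn (0.88), 4930430E12Rik, Piwil2, 2010005H15Rik and Ppbp (0.84). Cxcr2 was most like Stfa2l1 (0.92), Gm20406, Stfa1, Gm17619 and Upp1, and Cxcr4 like Iqgap1 (0.84), Adgre5, Ezr, 1110008P14Rik and Stap1. Among the members, the ligand pairs lay at 0.76 to 0.79, Cxcl2 and Cxcr2 at 0.52 and Cxcr2 and Cxcr4 at 0.41, while Cxcl1 and Cxcr2 lay at 0.09.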

How the data were processed

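CD45+ cells were profiled on the 10x 3′ platform. The deposited matrices hold UMI counts per gene and barcode, which the authors made with Cell Ranger on mm10, per the submitters' processing notes. From these counts, barcodes below 600 genes or above 10% mitochondrial UMIs were dropped. Doublets called by scrublet (scanpy 1.11.5) were removed at an expected 0.8% per 1000 barcodes, as were those that carried Itgam together with a lymphocyte marker. Libraries were integrated in Seurat 5.3.0 (R 4.3.3) on 2000 features without the 5 members, with 50 dimensions and resolution 0.6. A cluster of a library took the class with the highest mean marker level among those with at least 3 markers in 25% of its cells. It stayed unnamed where markers of another class led its 10 leading genes, or, with no own marker there, where a second class was close or its median UMIs were far below the library's. Those thresholds were set after clusters were seen, and the members and gene lists were chosen with earlier results of these data known. Groups below 20 cells were not used.

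UMIs were summed per class and library and divided by the class total. Ratios carry exact conditional intervals for 2 Poisson counts, shares exact Clopper-Pearson intervals, and bounds use a floor of 3 counts per library. Called genes passed 4-fold with at least 20 UMIs in the pair. For a member that had these UMIs through its higher group alone, the filter favours a difference. The named genes were the members, the listed genes and the 5 genes most like each member. The intervals were checked on simulated Poisson counts, the kind of count they assume. That check left out the uneven spread of UMIs over cells and so cannot speak to it. TMM and size factors came from edgeR 4.0.16 and the median of ratios. No replicate test was run, since each condition is 1 library. Some listed genes are not reported here.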

Additional observations from a re-analysis of the deposited data

Results flagged for a closer look

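Cxcr4 in neutrophil-like cells lay on opposite sides of the ActD sham at the 2 times after injury. The log2 ratio was 1.42 (1.19 to 1.65) at 3 dpi and -0.33 (-0.56 to -0.09) at 14 dpi. Both use the same control library, and the difference was not tested. The 14 dpi value was 0.05 at resolution 0.3 and 0.66 in female cells, so the opposite sides do not hold under every choice. The 3 dpi cells were the shallowest and lowest in neutrophil markers, and the part of that in the ratio was not tested.

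Some cells that took no class name, and so entered no comparison, held members above their level in the ActD sham. At 14 dpi 137 shallow cells of cluster 5, with Gadd45b and Ccrl2 among the leading genes, held Cxcl2 at 11380 CPM, Cxcl3 at 82.9 CPM and Cxcr4 at 440 CPM. That Cxcl2 level is close to the 11558 CPM of the neutrophil-like cells at 3 dpi, most of which lie in the same cluster.

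In the standard sham 116 unnamed cells of cluster 3, led by Lpl and Spp1, held Cxcl2 at 1170 CPM. At 3 dpi the 200 unnamed cells of cluster 3 held Cxcl1 at 21.6 CPM and Cxcl3 at 15.1 CPM. In 178 unnamed cells of cluster 16 at 3 dpi, led by cell cycle genes, Cxcl1 stood at 24 CPM, Cxcl2 at 571 CPM and Cxcl3 at 21.1 CPM. These 3 dpi values are of the order seen in lymphocyte-like cells of that library.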

How the results depend on the processing

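No paired analysis was possible because each condition is 1 library without replicates, and for the same reason no library could be left out. Under other processing choices 1110 values of 86 results were recomputed. Of these 861 stayed within counting error, 249 moved and 0 reversed a ratio past 4-fold, whose direction was kept in all 573 values. In 172 further values, from 2 alternatives chosen after seeing the data, 157 stayed and 15 moved. Smaller ratios did change sign, in 50 of 1118 values and 16 of 74 ratios, among them Cxcr2 of 14 over 3 dpi in neutrophil-like cells under 7 of 17 alternatives.

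For 3 dpi over the ActD sham in neutrophil-like cells, the log2 ratios of Cxcl2, Cxcr2 and Cxcr4 (4.74, -0.66 and 1.42) became 3.82, -1.59 and 0.49 with TMM factors, and 3.80, -1.61 and 0.47 with size factors. As a mean over cells they were 4.27, -1.01 and 1.18. Cxcl2 and Cxcr2 were 5.01 and -0.42 with each library clustered alone, 5.10 and -0.22 with each cell named alone, and 5.08 and -0.39 with unnamed cells of those clusters added, a choice made after seeing the data. In female cells Cxcl2 was 4.46, and its standard over ActD sham ratio in microglia-like cells was 11.55 in place of 10.10. The cause of these moves was not tested.

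The neutrophil-like share of Cxcl2 UMIs at 3 dpi, 28.5%, was 27.4% at resolution 1.2, 24.2% under a stricter filter (1000 genes, 5% mitochondrial UMIs), and 24.2% without doublet removal. It was 26.9% with cells of mixed markers kept, 19.7% with each cell named alone, 66.6% as a mean over cells, 14.9% in male and 21.4% in female cells. Ratios of Cxcl2 to the ActD sham rest on few UMIs, 8 in macrophage-like and 6 in microglia-like cells.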
